A study of Mus musculus with 2 samples.

Results

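The genes described here encode 9 TATA-box binding protein-associated factors (Tafs) and the TATA-box binding protein itself, Tbp. All belong to the general transcription factor TFIID or are paralogues of its subunits. They were Taf4a, Taf4b, Taf12, Taf3, Taf5, Taf6, Taf8, Taf9, Taf10 and Tbp, and they were chosen by name from 22208 protein-coding genes of the autosomes and chromosome X. Taf4a is the annotated symbol of Taf4, the gene that was inactivated.

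Open chromatin was mapped in enteroids by ATAC-seq, which uses a transposase to tag accessible DNA for sequencing. Enteroids are epithelial cultures, grown here from ileal crypts of mice 4 months old on a mixed C57Bl6/129sv background. Control enteroids, labelled WT, were Taf4 lox/lox according to the study's methods, and thus carried the floxed alleles without Cre. Taf4-inactivated enteroids, labelled KO, were Taf4 lox/lox::VilCreERT2, in which the villin promoter drives a tamoxifen-inducible Cre recombinase in intestinal epithelial cells. Both received 1 µM 4-hydroxytamoxifen for 3 days. There was 1 library per genotype, so no difference given here has a replicate check and no p-value was computed. Which exons of Taf4 are floxed is not given in the sources used here.

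TFIID recognises core promoters and is the first general factor around which RNA polymerase II is assembled there. Tbp bends the DNA at the TATA box, while the Tafs contact other promoter elements, activators and modified histones. Many Tafs hold together through histone-fold pairs, such as Taf4 with Taf12, Taf6 with Taf9, and Taf10 with Taf8 or Taf3. Taf9, Taf10 and Taf12 also serve in SAGA, a histone acetyltransferase co-activator complex. Taf4b is a paralogue of Taf4 best known for its role in germ cells.

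The DNA just upstream of 5 of these genes is shown because it lies, wholly or in part, under the promoter peaks compared below. The peaks of Taf4a and Tbp differed most in rank among these, and those of Taf12, Taf8 and Taf10 differed in width. The sequences are 250 bases of the mm9 genome ending directly before the most upstream coding start site, written 5′ to 3′ on the strand of the gene. Capitals mark matches, on either strand, to the letters CCAAT (bound by NF-Y), GGGCGG (SP and KLF factors), CCGGAAG (ETS factors) or TGCGCA (the unit repeated in the NRF1 site).
Taf4a (chr2:179711352-179711601, minus strand): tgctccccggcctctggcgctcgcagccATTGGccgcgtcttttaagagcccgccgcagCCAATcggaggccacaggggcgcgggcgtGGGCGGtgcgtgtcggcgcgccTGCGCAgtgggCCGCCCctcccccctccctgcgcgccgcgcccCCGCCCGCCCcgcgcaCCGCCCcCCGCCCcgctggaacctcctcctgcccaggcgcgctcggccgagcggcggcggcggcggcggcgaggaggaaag
Taf12 (chr4:131830040-131830289, plus strand): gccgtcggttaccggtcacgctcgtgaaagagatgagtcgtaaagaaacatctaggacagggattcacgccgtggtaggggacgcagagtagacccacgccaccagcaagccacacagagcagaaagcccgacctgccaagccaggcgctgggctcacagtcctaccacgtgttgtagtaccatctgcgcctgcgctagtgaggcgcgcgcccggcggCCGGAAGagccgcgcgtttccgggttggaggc
Taf8 (chr17:47639242-47639491, minus strand): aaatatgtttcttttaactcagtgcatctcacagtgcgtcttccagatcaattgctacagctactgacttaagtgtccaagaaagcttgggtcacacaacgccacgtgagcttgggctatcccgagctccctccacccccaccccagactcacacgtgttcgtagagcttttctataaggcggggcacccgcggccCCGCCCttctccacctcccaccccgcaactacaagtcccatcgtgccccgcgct
Taf10 (chr7:112892876-112893125, minus strand): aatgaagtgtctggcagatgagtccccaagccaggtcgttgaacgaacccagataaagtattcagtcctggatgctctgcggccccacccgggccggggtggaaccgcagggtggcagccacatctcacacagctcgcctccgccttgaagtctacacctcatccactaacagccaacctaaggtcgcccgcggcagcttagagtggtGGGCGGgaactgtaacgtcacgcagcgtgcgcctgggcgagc
Tbp (chr17:15636602-15636851, plus strand): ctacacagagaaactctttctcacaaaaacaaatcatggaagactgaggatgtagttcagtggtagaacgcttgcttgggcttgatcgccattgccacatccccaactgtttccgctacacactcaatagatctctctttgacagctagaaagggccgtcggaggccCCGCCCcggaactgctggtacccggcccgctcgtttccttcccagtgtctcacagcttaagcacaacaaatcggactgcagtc

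All 250 bases of the Taf4a stretch lay inside the promoter peak of both libraries. Of the Tbp stretch, 238 bases lay inside the control and 216 inside the Taf4-inactivated peak, and of the Taf12 stretch 189 and 250. Of the Taf8 stretch 163 bases lay inside the control and 214 inside the Taf4-inactivated peak, and of the Taf10 stretch 250 and 241. The Taf4a stretch also overlaps an annotated exon of 4921531C22Rik, a long non-coding RNA gene.

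Matches were counted from 250 bases upstream to 50 bases downstream of the most upstream coding start of each gene, and set against 22197 coding promoters of that length. GGGCGG was found at 8 of the 10 genes, all but Taf12 and Taf6, and at 44.1% of all promoters. CCGGAAG was found at Taf12 and Taf3 and in 10.9% of all promoters. CCAAT and TGCGCA were both found at Taf4a and Taf4b, with shares of 37.9% and 9.50% over all promoters. AAGATGG, part of the YY1 site, was found at Taf4a, Taf5 and Taf8, and at 6.70% of all promoters. The TATA box letters TATAAA occurred at 13.4% of all promoters, and here at Taf4b, where they began 27 bases before the start, and at Taf5, where they began 246 bases before it. CpG dinucleotides were counted relative to their expected number from the C and G content, and this ratio ranged from 0.727 (Taf6) to 1.05 (Taf4b), above the median of 0.543 over all promoters in each of the 10 genes.

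The control list held 90445 peaks and the Taf4-inactivated list 71282 peaks, called by the authors in each library separately. The background level solved from the fold and p of the peaks was 1.65 times higher in the control library, which was thus the deeper one by this estimate. Of 9 markers of the intestinal epithelium, 8 had a promoter peak in control, where Krt20 had none, and 9 in Taf4-inactivated enteroids. Of 8 markers of other cell types, 5 and 4 had a promoter peak, respectively. Over all coding genes, 68.6% had one in control and 65.8% in Taf4-inactivated enteroids, so presence alone does not mark a cell type. Col1a1, Pdgfra, Des and Myod1, markers of fibroblasts, mesenchyme and muscle, had one in both lists, and the endothelial marker Pecam1 in control only. By percentile of fold enrichment within the list, in control and after inactivation, these 4 ranged from Myod1 (5.02 and 4.37) to Des (81.9 and 53.2). The lowest epithelial marker, Cdx1, was at 9.74 and 0.68. Ptprc, Cd3e and Cdh5, markers of leukocytes, T cells and endothelium, had none in either list. An open promoter does not show expression, and the part of other cell types in the results was not tested.

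A promoter peak was a peak within 1 kb of any annotated start site of the gene. All 10 genes had a promoter peak in both lists. Over all coding genes, 68.6% had a promoter peak in control, 65.8% in Taf4-inactivated enteroids and 62.9% in both, while 5.69% had it in control only and 2.88% in Taf4-inactivated enteroids only. The 10 genes have 38 annotated start sites, of which 30 had a peak within 1 kb in both lists and 8 had none in either list, so the same start sites were marked in both libraries. The 8 unmarked sites were internal starts of Taf4a, Taf4b, Taf3, Taf6 and Tbp. Each list held 11 promoter peaks for the 10 genes, because Taf3 had peaks at both ends of the gene.

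Fold enrichment relates the mean signal of a peak to the background of its own library, so its values cannot be set against those of the other library. The peak with the highest fold at each gene was therefore placed by its percentile of fold within its own list. This percentile still depends on the length and make-up of the list, which differed between the libraries. What part of a rank difference comes from this was not tested. In control enteroids the percentiles had a median of 91.2 over the 10 genes and 88.2 over all coding genes with a promoter peak in both lists. In Taf4-inactivated enteroids these medians were 87.7 and 82.6. The median difference, inactivated minus control, was −2.85 points for the 10 genes and −2.77 points for all coding genes (quartiles −10.6 and 2.37). Of the 10 genes 6 were lower and 4 higher, where 65.8% of 13966 coding promoters were lower and 34.2% higher. A difference of at least 10 points downwards was seen at 1 gene (Taf4a), against 26.3% of coding promoters, and upwards at 2 genes (Taf6 and Tbp), against 13.5%. These calls depend on the scale. By −log10 p, Taf4a (−9.94 points) and Taf6 (8.68 points) stayed under 10 points. Ranked among coding promoters alone, Taf6 (8.67 points) stayed under it, while Taf5 (−24.8 points), Taf10 (−10.4 points) and Taf8 (16.8 points) passed it. Taf4a (−10.5 points) and Tbp (36.5 points) passed it on this scale as well. The shares of all coding promoters past 10 points on these other scales are not given here.

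**Figure D1:**
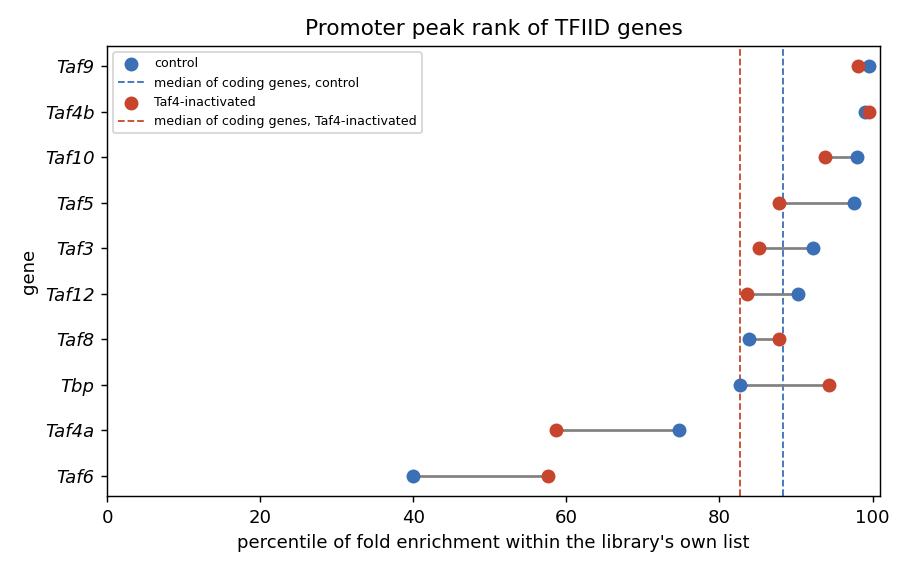
Percentile of fold enrichment (x axis, within the list of each library) of the highest promoter peak of each gene (y axis) in control (blue) and Taf4-inactivated (red) enteroids, 1 library each, with dashed lines at the medians of all coding genes. Taf9 and Taf4b sit above percentile 98 in both libraries, Taf6 and Taf4a lie lowest in both, and the compared peaks of Taf3 lie at different start sites.

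In control enteroids the order from the highest to the lowest percentile was Taf9, Taf4b, Taf10, Taf5, Taf3, Taf12, Taf8, Tbp, Taf4a and Taf6. In Taf4-inactivated enteroids it was Taf4b, Taf9, Tbp, Taf10, Taf8, Taf5, Taf3, Taf12, Taf4a and Taf6. By fold, the highest pair and the lowest pair of genes were thus made up of the same genes in both libraries, and Tbp moved from the eighth to the third place. By −log10 p this held for the highest pair only. The lowest pair was then Taf6 and Tbp (percentiles 61.8 and 81.2) in control, and Taf6 and Taf4a (70.4 and 79.7) after inactivation. Without replicates the spread of these ranks is not known.

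Taf4a and the gene of its histone-fold partner, Taf12, were both lower in rank by fold in Taf4-inactivated enteroids, as were 65.8% of coding promoters. Both were higher in rank by width within their list (0.52 and 20.9 points), although in bp the Taf4a peak was narrower after inactivation. Taf4a (ENSMUSG00000039117.9) lies on the minus strand of chromosome 2 from 179646851 to 179711351. Its promoter peak was 2076 bp wide in control and 1977 bp after inactivation, the widest of the 10 genes in both, with 1936 bp in common. It began 504 bp upstream of the main start in control and 545 bp upstream after inactivation, and covered 2 annotated starts. Its percentile was 74.7 in control and 58.7 after inactivation, a difference of −16.1 points, and 16.3% of coding promoters had a lower difference. Ranked by −log10 p, the difference was −9.94 points. The peak holds a start site of 4921531C22Rik or lies within 1 kb of it. From a start-site peak it cannot be read whether recombination removed the floxed exons.

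Taf12 (ENSMUSG00000028899.5, chromosome 4, 131830290 to 131851681, plus strand) encodes the subunit that forms a histone-like pair with Taf4. Its promoter peak was 625 bp wide with a fold enrichment of 2.58 at percentile 90.2 in control. In Taf4-inactivated enteroids it was 875 bp wide with a fold enrichment of 3.30 at percentile 83.5. The wider peak contained the whole control peak, reaching 347 bp upstream of the start in place of 189 bp. Width and rank thus differed in opposite directions at Taf12.

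Taf4b (ENSMUSG00000054321.5, chromosome 18, 14941754 to 15058868, plus strand), the paralogue of Taf4, had a promoter peak of higher mean fold than Taf4a within each library. Its fold enrichment was 3.50 in control, at percentile 99.0, and 5.36 in Taf4-inactivated enteroids, at percentile 99.5. Among the promoters of coding genes alone, these peaks lay at percentiles 94.8 and 98.5, and those of Taf4a at 34.6 and 24.1. By −log10 p within the whole list the contrast was smaller, 98.8 and 99.3 for Taf4b and 89.7 and 79.7 for Taf4a. Fold is a mean over the peak, and the Taf4a peak was the wider one in both libraries. The Taf4b peak was 1177 bp wide in control and 996 bp after inactivation and shared 976 bp. Its internal start site had no peak within 1 kb in either library. The rank difference of Taf4b was 0.52 points.

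**Figure D2:**
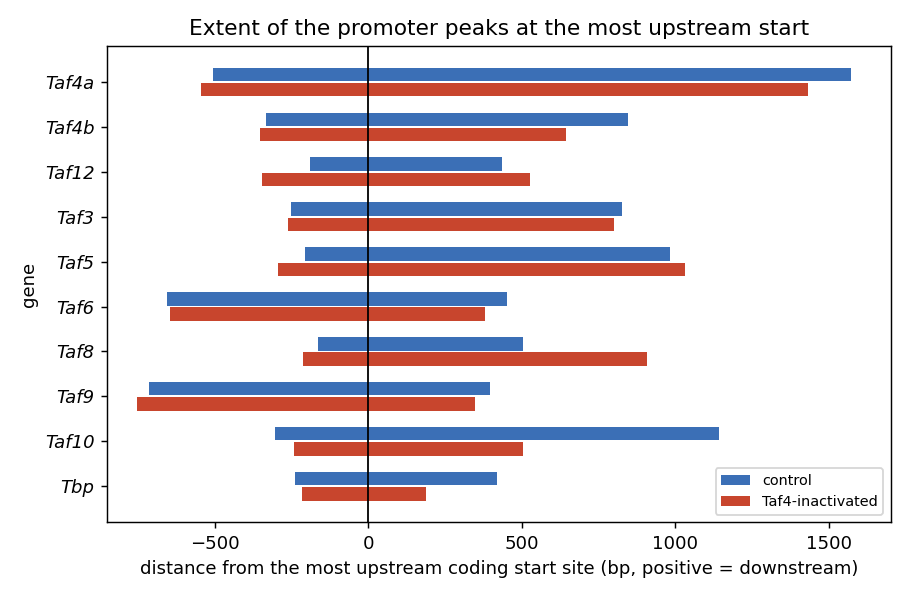
Extent of the promoter peak at the most upstream coding start (vertical line) of each gene, in bp along the direction of transcription, for control (blue) and Taf4-inactivated (red) enteroids. Taf8 and Taf12 have wider bars and Taf10 and Tbp narrower bars in the Taf4-inactivated library, and the bars of Taf6 and Taf9 reach farthest upstream.

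Taf5, a WD40-repeat protein, belongs with Taf4, Taf6, Taf9 and Taf12 to the core of TFIID. Its gene (ENSMUSG00000025049.5, chromosome 19, 47142238 to 47157969, plus strand) has a single annotated start. The promoter peak was at percentile 97.6 with a width of 1191 bp in control, and at percentile 87.7 with a width of 1324 bp in Taf4-inactivated enteroids. The difference of −9.84 points lay just inside the limit of 10 points. Counted among coding promoters alone, Taf5 was at percentile 87.1 and 62.3, a difference of −24.8 points.

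Taf6 and Taf9 form a histone-fold pair, and both have a start site of a neighbouring gene inside their promoter peak or within 1 kb of it. Taf6 (ENSMUSG00000036980.7, chromosome 5, 138619845 to 138628679, minus strand) had the lowest percentile of the 10 genes in both libraries. The Taf6 peak, with a start of Cnpy4 in it or within 1 kb, was at percentile 40.0 in control and 57.6 after inactivation. This difference of 17.7 points was the largest upward one of the 10 genes by fold, and 91.2% of coding promoters had a smaller one. By −log10 p it was 8.68 points, less than that of Tbp. Its width was 1106 bp and 1026 bp, and the narrower peak lay wholly inside the wider one. Ranked by −log10 p, the Taf6 peak was at percentiles 61.8 and 70.4. For this reason Taf6, alone of the 10 genes, had no promoter peak among the top 20000 peaks of either list by −log10 p. The share of all coding genes without one at that setting is not given here.

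Taf9 is annotated as a pair of overlapping gene models under the same symbol (ENSMUSG00000078941.3 and ENSMUSG00000052293.8), together spanning 101421298 to 101436368 on the plus strand of chromosome 13. Its promoter peak, with a start of Rad17, a DNA damage checkpoint gene, in it or within 1 kb, was at percentile 99.5 in control and 98.0 after inactivation. The fold enrichments were 3.76 and 4.70, the first being the highest control value of the 10 genes. The width was nearly equal, with 1110 bp and 1101 bp, of which 1062 bp were in common.

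Taf10 pairs with either Taf8 or Taf3, and the promoter peaks of Taf10 and Taf8 differed in width. Taf10 (ENSMUSG00000043866.4, chromosome 7, 112887907 to 112892875, minus strand) had a promoter peak of 1445 bp in control and 746 bp after inactivation, a ratio of 0.516. Most of the difference lay downstream of the start, where the control peak reached 1141 bp and the Taf4-inactivated peak 504 bp into the gene. Upstream, the peaks reached 303 bp and 241 bp. The percentiles were 98.0 and 93.8. Of coding promoters, 9.78% had a smaller width ratio.

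Taf8 (ENSMUSG00000023980.5, chromosome 17, 47624999 to 47639241, minus strand) showed the opposite shape. Its peak was 668 bp wide in control and 1123 bp after inactivation, a ratio of 1.68, and 92.4% of coding promoters had a smaller ratio. The wider peak reached 908 bp downstream of the start in place of 504 bp. The fold enrichment was 2.37 at percentile 83.8 in control and 3.53 at percentile 87.7 after inactivation.

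Taf3, whose PHD finger reads a histone mark of active promoters, was the only member with separate promoter peaks at distant start sites. The gene (ENSMUSG00000025782.6) spans 9836179 to 9970223 on the minus strand of chromosome 2. At the main start, the peak was at percentile 92.2 in control and 77.7 after inactivation, with widths of 1080 bp and 1064 bp and 1055 bp in common. At the internal starts near the 3′ end of the gene, the peak was at percentile 61.0 in control (9839356 to 9840645) and 85.1 in Taf4-inactivated enteroids (9840013 to 9841007), with 633 bp in common. The higher of the 2 peaks was therefore the one at the main start in control and the internal one after inactivation, and the difference of −7.06 points between the highest peaks compares different sites. The internal site differed upwards and the main site downwards. At the main start alone the difference was −14.5 points, which would make Taf3, beside Taf4a, a gene lower by at least 10 points.

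Tbp (ENSMUSG00000014767.10, chromosome 17, 15636852 to 15665343, plus strand) binds the TATA box. Its promoter peak was 659 bp wide in control and 406 bp after inactivation, and all of the narrower peak lay inside the wider one. In control the fold enrichment was 2.35 at percentile 82.7, and in Taf4-inactivated enteroids 4.07 at percentile 94.3. The difference was 11.5 points by fold and 12.7 points by −log10 p, but −17.5 points when ranked by width. Among coding promoters alone Tbp was at percentile 43.8 and 80.4, a difference of 36.5 points, the largest of the 10 genes on that scale. The peak was thus narrower and of higher rank in the Taf4-inactivated library.

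**Figure D3:**
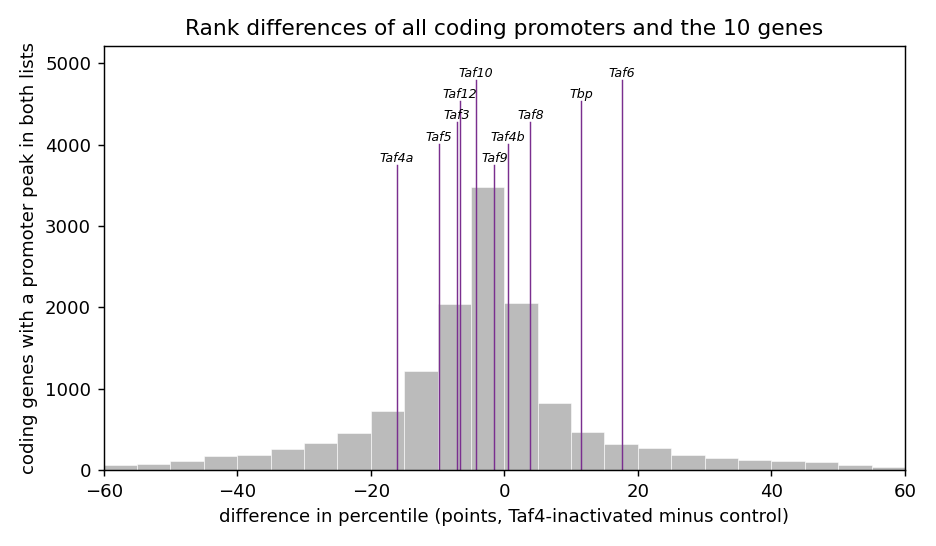
Number of coding genes (y axis) by the difference in percentile of their promoter peak, Taf4-inactivated minus control (x axis, points), with the 10 genes as labelled lines. Most coding genes lie between −10 and 5 points, Taf4a lies at −16.1 and Taf6 at 17.7, and 127 of 13966 genes lie beyond 60 points in either direction, outside the axis.

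The median width of the compared promoter peaks was 1108 bp in control and 1011 bp after inactivation over the 10 genes, and 1085 bp and 996 bp over all coding genes. The median ratio of widths, inactivated over control, was 0.940 for the 10 genes and 0.970 for all coding genes. The peak was narrower at 7 genes and wider at 3, Taf12, Taf5 and Taf8, while 55.6% of coding promoters were narrower and 44.3% wider. Past 1.5-fold, Taf10 and Tbp were narrower, against 17.2% of coding promoters, and Taf8 was wider, against 10.5%.

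Distal peaks were the other peaks in the gene body and in 10 kb on each side. The 10 genes had 36 distal peaks in control and 23 after inactivation. Near all coding genes the lists held 51918 and 40490 distal peaks, so a lower count after inactivation was general. The count was higher in control at 8 genes and equal at Taf4b and Taf10. At equal list lengths of 20000 peaks, 12 and 8 distal peaks were left, and 8 in each list had a −log10 q of 5 or more. By place, 12 of the control peaks lay in introns of the gene, 10 upstream and 11 downstream, and in the Taf4-inactivated list 6, 10 and 5.

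Of the control distal peaks 17 (47.2%, exact Clopper-Pearson 95% interval 30.4 to 64.5) overlapped a peak of the other list, against 44.6% of the distal peaks of all coding genes. Of the Taf4-inactivated distal peaks 17 (73.9%, 51.6 to 89.8) did, against 57.6%. These intervals cover counting error only. Some distal peaks lay near a start site of a neighbouring gene. Of 11 control peaks within 1 kb of a start site of another gene, 9 were shared (81.8%, 48.2 to 97.7), against 76.9% over all coding genes. Of 10 such Taf4-inactivated peaks, 9 were shared (exact interval 55.5 to 99.7%), against 87.7%. Away from other start sites, 8 of 25 control peaks were shared (32.0%, 14.9 to 53.5), against 39.1%, and 8 of 13 Taf4-inactivated peaks (61.5%, 31.6 to 86.1), against 51.6%. In all these classes the background share lay inside the interval of the 10 genes.

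**Figure D4:**
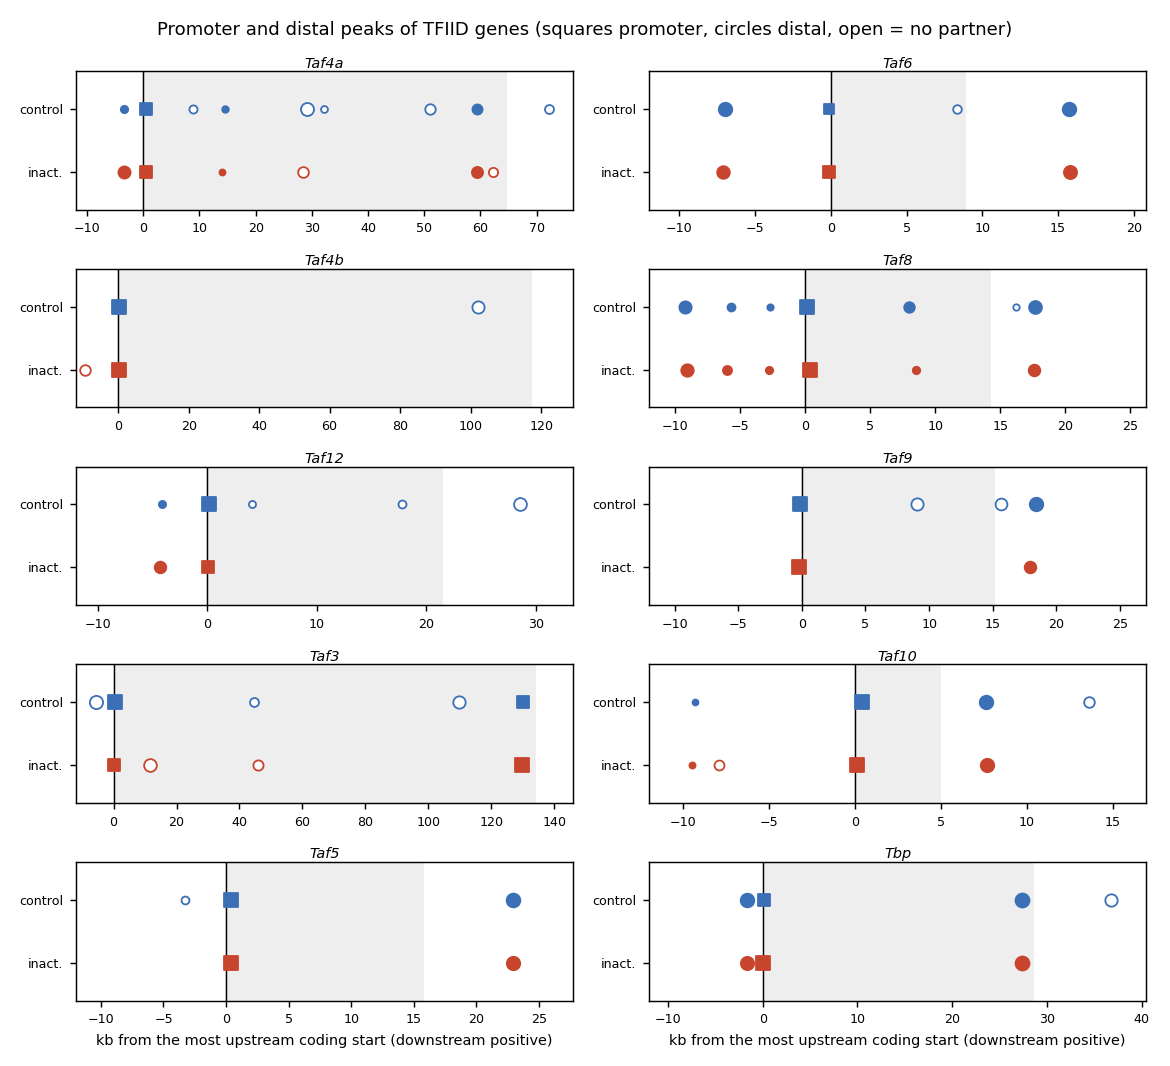
Promoter peaks (squares) and distal peaks (circles) of each gene by distance from the most upstream coding start (x axis, kb along transcription) in control (blue, upper row) and Taf4-inactivated enteroids (red, lower row). Open circles have no overlapping peak in the other list, larger symbols have a higher percentile of fold, and grey marks the gene. Open circles are 19 of 36 in control (52.8%) and 6 of 23 in the shorter Taf4-inactivated list (26.1%). Over all coding genes, 55.4% and 42.4% of the distal peaks had no partner.

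Taf4a had the most distal peaks in control, 8, against 5 in Taf4-inactivated enteroids, and 3 in each list were shared. The strongest control peak without a partner lay in an intron 29.1 kb downstream of the main start (179682123 to 179682441), at percentile 83.6. The nearest Taf4-inactivated peak (179682836 to 179683050) was 395 bp away and at percentile 50.1. A shared peak 3.3 kb upstream of Taf4a was 277 bp wide at percentile 13.1 in control and 304 bp wide at percentile 70.3 after inactivation. By fold this was the largest rank difference of the 17 pairs of shared distal peaks, 57.3 points. By −log10 p it was 29.4 points, and 3 pairs, near Taf12, Taf8 and Taf9, differed more. The promoter of Taf4a and this upstream peak thus differed in opposite directions. The remaining control peaks of Taf4a without a partner lay between percentiles 9.12 and 46.9.

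At Taf12, a shared peak lay 4.1 kb upstream, within 1 kb of a start of a U11 small nuclear RNA gene. It was at percentile 12 in control and 62.2 after inactivation. A control peak at percentile 80.7 downstream of Taf12, within 1 kb of a start of Rab42-ps, had no partner. Taf3 had 3 distal peaks in control and 2 after inactivation, and none was shared. The strongest of them lay 5.6 kb upstream of the main start in control, at percentile 86.9, and in an intron 11.6 kb downstream of it in Taf4-inactivated enteroids, at percentile 78.9. Taf4b, the gene with the highest-ranked promoter after inactivation, had 1 distal peak in each list, at different places.

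Taf8 had the most shared distal peaks, 5 of 6 in control and 5 of 5 after inactivation. In the coding part of the gene, the peak was 1524 bp wide at percentile 48.9 in control and 306 bp wide at percentile 13.9 after inactivation. A peak downstream of Taf8 was 802 bp wide at percentile 81.4 and 380 bp wide at percentile 62.6. Upstream, a weak peak within 1 kb of a start of Ccnd3, which encodes cyclin D3, was at percentiles 4.77 and 13.1. The peaks inside and downstream of Taf8 were lower in rank after inactivation, while its promoter and the 3 upstream peaks were higher by fold. By −log10 p, the upstream peak 5.7 kb away was lower, by −2.29 points.

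The shared distal peaks within 1 kb of a start of a neighbouring gene ranked high in both libraries at Tbp, Taf5, Taf6 and Taf10. Next to Tbp, the peak at Pdcd2, which lies over a non-coding or untranslated exon part of Tbp, was at percentiles 99.3 and 99.1, and that at Psmb1, a proteasome subunit gene, at 94.0 and 87.2. Both of these ranked above Tbp in control, and Tbp ranked above the Psmb1 peak in Taf4-inactivated enteroids. The peak at Pdcd11 and Usmg5, downstream of Taf5, was at 96.0 and 89.6, and that at Ilk and Rrp8, downstream of Taf10, at 91.8 and 90.2. The peak at Ap4m1 and Mcm7, which encodes a subunit of the replicative helicase, lay downstream of Taf6 at 92.5 and 85.8, and that at Mblac1, upstream of it, at 91.0 and 77.4. Near Taf9, the peak at Ccdc125 was at 91.8 and 63.3. A peak near Tpp1, upstream of Taf10, was called in the Taf4-inactivated list only, at percentile 40.3. A peak near Gm7177, downstream of Tbp, was called in the control list only, at percentile 73.5.

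Among the 17 pairs of shared distal peaks, 10 were lower and 7 higher in rank in Taf4-inactivated enteroids, with a median difference of −1.57 points. Over 22945 such pairs near all coding genes the median was −1.41 points. The shares of those pairs that were lower or higher by any size are not given here. By at least 10 points, 4 pairs were lower and 4 higher, against 31.8% and 26.3% of the pairs of all coding genes.

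The other genes of the basal transcription machinery were examined in the same way. All 5 other TFIID subunit genes, Taf1, Taf2, Taf7, Taf11 and Taf13, had a promoter peak in both lists. Their median difference was 4.49 points. Of them 2 were higher by at least 10 points, against 13.5% of coding promoters, and are named here after their values were seen. They were Taf7, at percentiles 74.8 and 95.9, and Taf2, at 84.9 and 96.8. Of 7 paralogues and related genes, 5 had a promoter peak in both lists, and Taf6l, the SAGA counterpart of Taf6, and Tbpl2, an oocyte paralogue of Tbp, had none in either. The median difference of these 5 was −7.83 points, with Taf7l, a testis paralogue of Taf7, at percentiles 90.8 and 73.9, and Taf9b, a paralogue of Taf9, at 76.0 and 63.7.

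All 17 genes of the other general transcription factors had a promoter peak in both lists, with a median difference of 3.02 points. Of these, 12 were higher and 5 lower, where 34.2% of all coding promoters were higher, and 4 were higher by at least 10 points, against 13.5%. Gtf2f1, a subunit of TFIIF, was at percentile 49.3 in control and 86.2 after inactivation. Gtf2h3 and Gtf2h4, subunits of the repair and transcription factor TFIIH, were at 59.2 and 56.4 in control and at 87.5 and 80.7 after inactivation. The remaining gene past 10 points was Ercc2, a TFIIH helicase, at 67.9 and 83.2, also named after its value was seen. All 10 SAGA subunit genes had a promoter peak in both lists, with a median difference of −2.65 points. Ccdc101 was at 95.4 and 84.2, the only one of them lower by at least 10 points, against 26.3% of coding promoters. None was higher by as much, against 13.5%. Over the 4 lists together, the median difference of 37 genes was −0.04 points, with 19 lower and 18 higher. The number of promoter peaks in control and Taf4-inactivated enteroids was 1 and 2 at Gtf2h3, 3 and 2 at Gtf2h4 and Ercc2, and 2 and 1 at Ccdc101. The peaks compared at these genes may therefore not be the same ones. Whether these lists differ from each other was not tested.

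**Figure D5:**
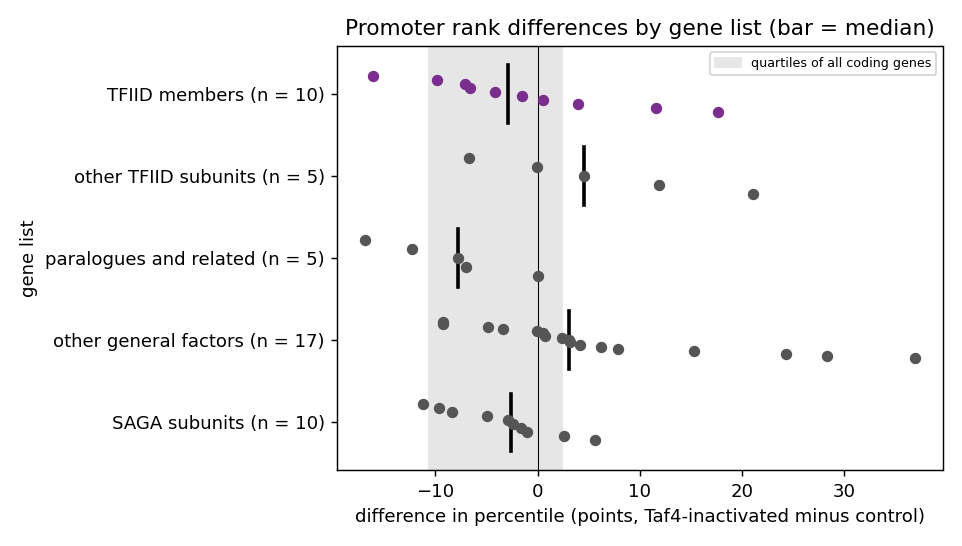
Difference in percentile of the promoter peak, Taf4-inactivated minus control (x axis, points), for the 10 genes described (purple) and the genes of 4 other lists (grey), 1 point per gene with a promoter peak in both lists, bars at the medians and shading between the quartiles of all coding genes. The points of each list overlap those of the others, and the largest difference, 36.9 points, belongs to Gtf2f1.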

How the data were processed

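The ATAC-seq peaks of 2 enteroid libraries, 1 per genotype as labelled, were used. The authors mapped reads to mm9 with Bowtie 1.0.0, keeping unique hits, and called broad peaks per library with MACS2 2.1.1, so the lists depend on depth. The deposited columns hold the fold enrichment over the background of the same library, the −log10 p and −log10 q averaged over each peak, and a score that is 10 times the −log10 q. How duplicate reads were treated is not given in the sources used here. All peaks lay within the NCBIM37 (mm9) chromosomes, and GENCODE annotation of that build was used. Positions are 1-based. Genes were matched by symbol, and all transcripts gave start sites. Percentiles are mean ranks within a list.

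The depth ratio came from the background level at which a peak's fold matches its Poisson p. Searches and this estimate were tested on simulated data. For the estimate, the simulation used single counts with the same Poisson p, not values averaged over a peak. It therefore cannot show how well the estimate holds for the deposited averages. Python 3.11.15, numpy 2.4.6, pandas 2.3.3, scipy 1.17.1 and matplotlib 3.10.9 were used. Motifs were searched as exact letters on both strands, and matches may overlap.

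The members and lists were chosen with earlier results of these data known. Named were the 10 members, neighbours whose start lay within 1 kb of a peak, listed genes without a promoter peak, and the 3 listed genes that differed most in rank upwards and the 3 downwards. Alternatives changed the start distance, the q threshold, list length, ranking value, peak chosen, flank and overlap.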

Additional observations from a re-analysis of the deposited data

How the results depend on the processing

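No paired analysis was possible because each genotype had 1 library, which also means that leaving a library out could not be tried. Of 44 alternative values of the main comparisons 33 stayed the same, by the limits of 1.5-fold for counts and ratios, 10 points for ranks and the interval for shares, and 11 moved. These limits are wide. The median rank difference counted as the same although its sign changed by width. The share of control distal peaks that were shared counted as the same at 32.0% and 47.2%. Of 80 values for single genes, 69 stayed the same, 9 moved and 2 were reversed (Taf4a and Tbp by width). All 10 genes kept a promoter peak in both lists with start distances of 500 bp or 2 kb, with coding transcripts alone and with a −log10 q of at least 2. At 5 or more, Taf6 and Tbp lacked it in control and Taf6 in Taf4-inactivated enteroids, and in the top 20000 peaks Taf6 lacked it in both. The shares of all coding genes with a promoter peak at these stricter settings are not given here. Ranked by width, 3 genes were lower after inactivation in place of 6. Ranking by width turned the direction of 7 genes, Taf4a (0.52 points), Tbp (−17.5), Taf12 (20.9), Taf5 (6.86), Taf3 (0.24), Taf9 (3.36) and Taf4b (−3.09), and the median became 0.58 points. With the widest promoter peak of each gene, Taf3 stood at 16.8 points, the median at −0.49 and 5 genes were lower. Among coding promoters alone the median was −4.93 points. Distal peaks, control and Taf4-inactivated, numbered 15 and 8 without a flank, 25 and 15 with 5 kb, 60 and 43 with 25 kb, 21 and 19 at a −log10 q of at least 2, 8 and 8 at 5 or more, and 12 and 8 in the top 20000 peaks. Fewer peaks enter these settings by construction, except with 25 kb, where more do. The peak at the most upstream coding start alone, chosen after the data had been seen, left the median rank difference at −2.85 points and gave a width ratio of 0.969. The causes of the values that moved with the ranking were not tested.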
